A study of Arabidopsis thaliana with 18 samples.

Results

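The superoxide dismutase, catalase and cytosolic ascorbate peroxidase genes of Arabidopsis thaliana were compared between the mutant stch4-1 and the wild type Col-0 (WT) in the cold. The genes were 10 rows of the deposited table, taken by their AGI identifiers out of 33557 rows: CSD1 (AT1G08830), CSD2 (AT2G28190), CSD3 (AT5G18100), FSD1 (AT4G25100), FSD2 (AT5G51100), FSD3 (AT5G23310), CAT1 (AT1G20630), CAT2 (AT4G35090), CAT3 (AT1G20620) and APX1 (AT1G07890). RNA came from whole seedlings, 14 days old and grown on a sucrose-containing medium, after 4 h at 4 °C, with 3 libraries of stch4-1 and 3 of WT in the Col-0 background. The labels name 18 samples in 6 groups; the other 12, from 0 h and 24 h, are not analysed here, and the values give the genotype difference in the cold and no response to cold. STCH4 is REIL2, a zinc-finger protein related to the yeast ribosome maturation factor Rei1, and the labels name a single mutant allele. REIL2 (AT2G24500) had 5.65, 5.44 and 5.80 FPKM (fragments scaled to transcript length in kilobases and to the mapped total of the library) in stch4-1, against 31.2, 34.1 and 36.0 FPKM in WT.

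Superoxide dismutases turn superoxide into hydrogen peroxide, and are grouped by the metal they hold: copper and zinc (CSD), iron (FSD) or manganese (MSD). Catalases remove hydrogen peroxide in peroxisomes without a reductant, and ascorbate peroxidases remove it with ascorbate. The ascorbate is then recycled by reductases, some of which draw on glutathione. In Arabidopsis leaves the copper and iron enzymes of the chloroplast are known to be exchanged according to copper supply: when copper is short, the transcription factor SPL7 raises FSD1 and the microRNA miR398, and miR398 cuts CSD1 and CSD2 transcripts.

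After 4 h of cold, 5 of the 10 genes were higher in stch4-1, namely CAT3, APX1, FSD1, CAT1 and CAT2, and CSD2 was lower. CSD1, CSD3, FSD2 and FSD3 did not pass the test. Tests were limma's moderated test on log2(FPKM + 1), with genes called at a Benjamini-Hochberg adjusted p under 0.05 over all 19289 genes tested, and all 10 genes passed the filter of 1 FPKM or more in at least 3 libraries. In the same comparison 18.5% of tested genes were called higher, 14.0% lower and 32.6% in either direction, so a call alone does not set a gene apart from the rest of the transcriptome. The groups did not overlap in 6 of the 10 genes, against 47.8% of all genes tested. The median log2 fold change of the 10 was 0.17, where that of all genes tested was 0.01. With quantile normalization, 3 of the 10 were called higher and 1 lower, beside 2614 higher and 3108 lower of all 19289 genes tested. The medians were then 0.05 for the 10 and -0.01 for all genes tested.

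**Figure D1:**
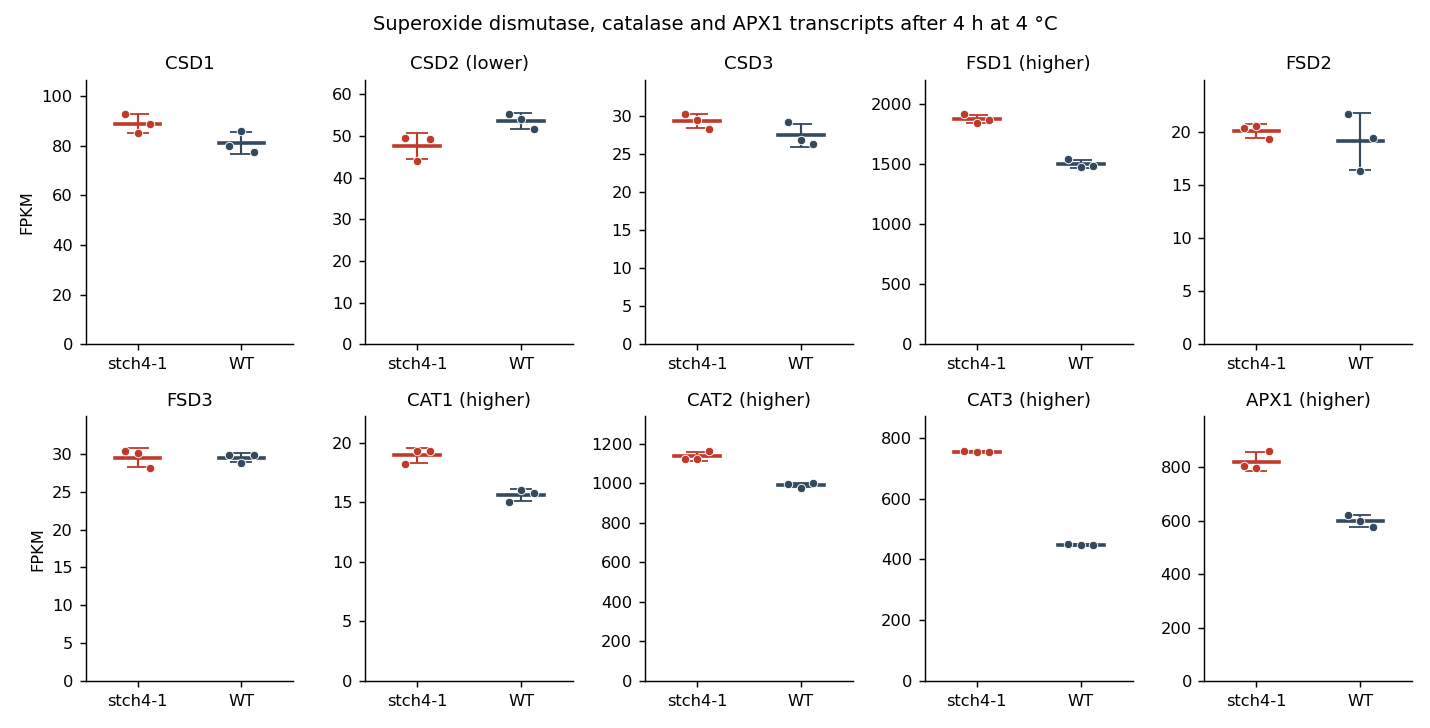
FPKM of each of the 10 genes in the 3 stch4-1 libraries (red, left) and the 3 WT libraries (dark, right); bars are means with SD, each axis starts at 0, and the call is in brackets. CAT3 separated the genotypes most widely, at 755 FPKM in stch4-1 and 448 FPKM in WT on average, while the points of CSD1, CSD3, FSD2 and FSD3 overlapped.

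The 10 genes spanned a wide range of transcript levels, and their order by mean FPKM was the same in both genotypes. In stch4-1 it ran from FSD1 (1879 FPKM) through CAT2, APX1, CAT3, CSD1, CSD2, FSD3, CSD3 and FSD2 to CAT1 (18.9 FPKM), and in WT the ends were at 1503 and 15.6 FPKM. FSD1 ranked 43rd of all rows by mean level, CAT2 77th, APX1 143rd and CAT3 180th. The only neighbours in this order whose libraries overlapped within a genotype were FSD3 and CSD3.

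FSD1, the most abundant superoxide dismutase transcript, was higher in the mutant. It had 1918, 1846 and 1874 FPKM in stch4-1, against 1541, 1482 and 1486 FPKM in WT. Every mutant library lay above every WT library, and the log2 fold change was 0.32 (SE 0.04, 95% interval 0.23 to 0.41, limma adjusted p = 0.00074). Abundant transcripts in general stood higher in stch4-1 on the deposited scale. Among the 234 tested genes that averaged 500 FPKM or more, 48.7% were called higher and the median log2 fold change was 0.19. Quantile normalization, which gives all libraries one distribution, took that median to -0.01 and FSD1 to 0.045 (limma adjusted p = 0.707), so the call of FSD1 rests on the deposited scaling.

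Of the 3 copper/zinc enzymes, CSD2 was the one called. CSD2, the chloroplast form, had 49.6, 44.0 and 49.3 FPKM in stch4-1 and 55.2, 54.0 and 51.6 FPKM in WT. The mutant libraries lay below the WT libraries without overlap, and the log2 fold change was -0.17 (SE 0.06, 95% interval -0.295 to -0.043, limma adjusted p = 0.0471). This call was lost when any single library was left out (adjusted p from 0.0527 to 0.125), without the filter (adjusted p = 0.0670) and without the eBayes trend (adjusted p = 0.0860). It was kept at -0.25 under quantile normalization and at -0.29 once a trend with transcript length was removed. CSD1, the cytosolic form, had 92.7, 85.1 and 88.8 FPKM in stch4-1 and 79.8, 86.0 and 77.3 FPKM in WT. These ranges overlapped through WT library b, and the log2 fold change of 0.13 did not pass (95% interval 0.02 to 0.25, limma adjusted p = 0.0788). It passed without WT b (0.18, adjusted p = 0.0320) and stood at -0.03 once the length trend was taken out. CSD3, the peroxisomal form, had 30.3, 29.5 and 28.4 FPKM in stch4-1 and 29.2, 26.8 and 26.4 FPKM in WT, ranges that overlapped. Its log2 fold change of 0.09 did not pass (95% interval -0.03 to 0.21, limma adjusted p = 0.200), and it was -0.11 without the length trend.

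Both CSD1 and CSD2 are known targets of miR398, and the sites are shown because CSD2 was called lower and CSD1 was not called. The mature sequences, from RefSeq on TAIR10.1, have the seed (bases 2 to 8) in capitals, which is the same in the family. The sites are the best ungapped match to miR398b-3p in the longest RefSeq transcript, with bases that pair with it as A-U or G-C in capitals.
miR398a-3p: uGUGUUCUcaggucaccccuu
miR398b-3p: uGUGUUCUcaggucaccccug
miR398c-3p: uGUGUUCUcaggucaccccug
CSD1 site: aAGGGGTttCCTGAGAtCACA
CSD2 site: tgcGGGTGACCTGgGAAacat
CCS site: attGGGaGACCTGgGAACACt
The CSD1 site crosses an exon junction in the 5' UTR (TAIR10.1, chr1:2827177-2827685 with the intron, plus strand) and pairs at 17 of 21 bases. The CSD2 site lies in the coding sequence (chr2:12015572-12015592, plus strand) and pairs at 13 of 21 bases, with 3 further G-U pairs and 5 mismatches in this ungapped alignment. CCS, the chaperone that loads copper into these enzymes, also carries a site in its coding sequence (chr1:4267521-4267541, minus strand), pairing at 15 bases. CCS had 9.29, 11.6 and 11.4 FPKM in stch4-1 and 11.5, 12.4 and 12.5 FPKM in WT, ranges that overlapped, and did not pass (log2 fold change -0.165, limma adjusted p = 0.179). The rows of the 3 MIR398 genes are listed at 0 in all 6 libraries, so miR398 itself was not measured here. In the list of miR398 genes and targets, which holds CSD1 and CSD2, 1 of 4 tested genes was lower, the CSD2 described above, and 0 higher. The remaining tested target, COX5B-1, was named after its values were seen. Its best match lies in the 5' UTR and pairs at 15 of 21 bases. COX5B-1 stood at 50.2 ± 7.28 FPKM in stch4-1 and 45.1 ± 8.01 FPKM in WT (SD, n = 3 each), with overlap. Its log2 fold change of 0.157 did not pass (limma adjusted p = 0.405).

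Because the level of 1 gene over another within a library does not depend on the library's overall scaling factor, ratios between isoforms were also taken. A ratio between genes of unlike abundance still carries any shift that differs with abundance. The median log2 fold change was 0.19 for genes of 500 FPKM or more and 0.03 for those of 10 to 100 FPKM. The ratio of CSD1 to CSD2 was 1.868, 1.933 and 1.802 in stch4-1 and 1.444, 1.591 and 1.498 in WT. The ratio of FSD1 to CSD2 was 38.7, 41.9 and 38.0 in stch4-1 and 27.9, 27.4 and 28.8 in WT. That of FSD1 to CSD1 was 20.7, 21.7 and 21.1 in stch4-1 and 19.3, 17.2 and 19.2 in WT. None of these ratios overlapped between genotypes, with an exact 2-sided permutation p = 0.1 for each, the smallest that 3 against 3 libraries can give, and 0.140 adjusted over the 7 ratios computed. Under quantile normalization the log2 fold changes were 0.045 for FSD1, 0.035 for CSD1 and -0.245 for CSD2. The ratio of FSD1 to MSD1 was 8.456, 8.259 and 8.155 in stch4-1 and 8.341, 7.792 and 8.005 in WT, and that of CAT1 to CAT2 averaged 0.0166 in stch4-1 and 0.0157 in WT. Both overlapped between genotypes (exact permutation p = 0.3 and 0.2). The pairs were chosen after the values were seen.

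FSD2 and FSD3 form a pair in the plastid nucleoid, where they associate with the plastid-encoded RNA polymerase. FSD2 had 20.4, 20.6 and 19.3 FPKM in stch4-1 and 21.7, 16.3 and 19.4 FPKM in WT. The WT libraries alone spanned the mutant range, and the log2 fold change of 0.08 did not pass (95% interval -0.14 to 0.29, limma adjusted p = 0.562). FSD3 had 30.4, 30.1 and 28.1 FPKM in stch4-1 and 29.8, 28.8 and 29.9 FPKM in WT. Its groups overlapped, and the 95% interval of the log2 fold change ran from -0.105 to 0.105. Among 10 other proteins associated with this polymerase, 5 genes were lower, or 3 without stch4-1 a or without WT a, and 1 was higher, with a median log2 fold change of -0.20. Over all genes tested 14.0% were called lower and 18.5% higher in the main fit. Of all 19289 genes, 2704 were lower there, 1880 without stch4-1 a and 2124 without WT a. PAP2 (pTAC2) fell to 10.3 ± 0.761 FPKM in stch4-1, against 14.0 ± 0.930 FPKM in WT (SD, n = 3 each). PAP12 (pTAC7) rose to 154 ± 5.25 FPKM in stch4-1, against 136 ± 4.08 FPKM in WT (SD, n = 3 each), a call lost under quantile normalization (adjusted p = 0.343) and in the fit without the length trend (adjusted p = 0.919).

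MSD1 (AT3G10920), the mitochondrial manganese enzyme and no member of the 10, had 227, 224 and 230 FPKM in stch4-1 and 185, 190 and 186 FPKM in WT (log2 fold change 0.28, limma adjusted p = 0.00058). Its groups did not overlap, and it was called under every alternative tried, at 0.15 with quantile normalization and 0.17 without the length trend. The 7 superoxide dismutase transcripts together summed to 2322 ± 44.6 FPKM in stch4-1 and 1900 ± 35.9 FPKM in WT (SD, n = 3 each). FSD1 held 81.0% ± 0.0846 of that sum in stch4-1 and 79.1% ± 0.375 in WT, and CSD2 2.05% ± 0.104 in stch4-1 and 2.82% ± 0.0625 in WT (SD, n = 3 each). Both shares separated the genotypes (exact permutation p = 0.1, the smallest possible, and 0.125 adjusted over 10 shares). Under quantile normalization the difference in the FSD1 share turned from 1.88 to -0.0562 percentage points.

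**Figure D2:**
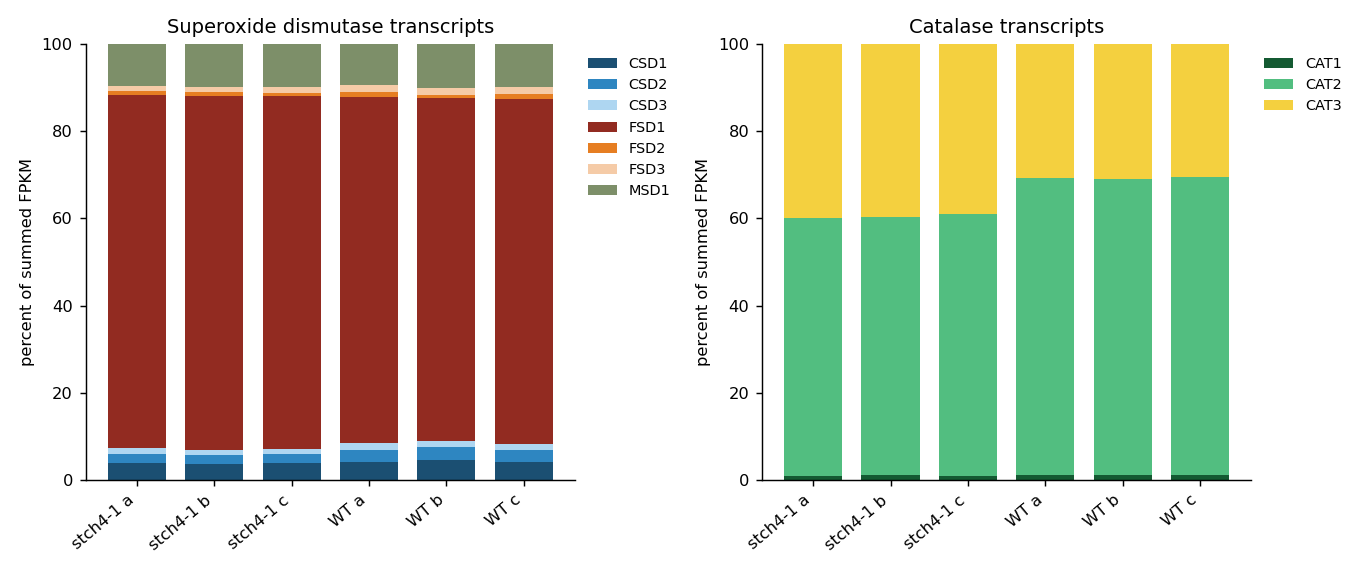
Percent of the summed FPKM of 7 superoxide dismutase transcripts (left) and 3 catalase transcripts (right) held by each gene, per library, stch4-1 left of WT. FSD1 held 78.7% to 81.0% of the first sum over the 6 libraries, while CAT3 held 39.5% of the catalase sum in stch4-1 and 30.8% in WT.

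All 3 catalase genes were called higher in stch4-1, or 2 with quantile normalization, and CAT3 had the largest rise of the 10 genes. Of all genes tested 18.5% were called higher in the main fit, and 48.7% of those that averaged 500 FPKM or more, as CAT2 and CAT3 did. Of all 19289 genes, 3576 were higher there and 2614 with quantile normalization. CAT3, whose transcript is known to peak in the evening under the circadian clock, had 757, 753 and 756 FPKM in stch4-1 and 451, 447 and 446 FPKM in WT. The libraries of each genotype lay within a few FPKM of each other, far from the other genotype, and the log2 fold change was 0.75 (SE 0.03, 95% interval 0.68 to 0.82, limma adjusted p = 6.5e-06), or 1.68 times. An increase at least as large was seen in 269 of the 19289 tested genes, or 1.39%. CAT3 kept its call under all alternatives, between 0.59 under quantile normalization and 0.83 without the length trend.

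CAT2, the main leaf catalase, which removes the hydrogen peroxide of photorespiration, had 1124, 1123 and 1164 FPKM in stch4-1 and 996, 978 and 1001 FPKM in WT. The groups did not overlap and the log2 fold change was 0.20 (SE 0.03, limma adjusted p = 0.00437). That is close to the median of 0.19 for genes of 500 FPKM or more, and under quantile normalization CAT2 was at 0.03 (adjusted p = 0.709). CAT1, the least abundant catalase, had 18.2, 19.3 and 19.3 FPKM in stch4-1 and 15.0, 16.0 and 15.7 FPKM in WT (log2 fold change 0.26, SE 0.05, limma adjusted p = 0.00597). Its groups did not overlap, and it stayed called under all alternatives (0.24 to 0.30).

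The catalases summed to 1911 ± 24.4 FPKM in stch4-1 and 1455 ± 12.9 FPKM in WT (SD, n = 3 each). CAT3 held 39.9%, 39.7% and 39.0% of this sum in stch4-1 and 30.9%, 31.0% and 30.5% in WT, and CAT2 59.5% ± 0.480 in stch4-1 and 68.1% ± 0.276 in WT (SD, n = 3 each). The shares of both genes were separated by genotype (exact permutation p = 0.1, 0.125 adjusted over 10 shares), and both differences kept their direction under quantile normalization and on leaving out each library. Within libraries the ratio of CAT3 to CAT2 was 0.674, 0.671 and 0.649 in stch4-1 and 0.453, 0.457 and 0.446 in WT.

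CAT3 and CAT1 are neighbours on chromosome 1, on the same strand, with 95 bases and no annotated gene between them. Their coding sequences are 76.9% identical, those of CAT1 and CAT2 80.3% and those of CAT2 and CAT3 76.5%, and none of the 50-base words of a catalase transcript occurs in a transcript of another gene. The 250 bases before the annotated start of CAT3 are shown because this gene rose most (RefSeq TAIR10.1, chr1:7142722-7142971, plus strand, read towards the start site).
CAT3 upstream: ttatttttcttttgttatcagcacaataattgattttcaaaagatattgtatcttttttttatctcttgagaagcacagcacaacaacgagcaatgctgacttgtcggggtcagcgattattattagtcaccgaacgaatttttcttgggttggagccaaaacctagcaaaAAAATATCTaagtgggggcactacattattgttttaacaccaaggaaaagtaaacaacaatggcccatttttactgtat
Capitals mark an evening element, AAAATATCT, a motif of clock-controlled promoters, which begins 79 bases before the start. This motif, searched on both strands, is in 2.5% of the 19152 tested genes' windows of this length, and in none of the other 9 genes' windows. AAAAATCT, a site of the clock factor CCA1 (6.8% of all windows), CACGTG, the G-box (7.4%), and GTAC, the core bound by SPL7 (34.7%), were searched likewise and did not occur in the CAT3 window. The last pair read the same on both strands, so each occurrence is 1 match. GTAC occurred in the windows of FSD1 (1 match), CSD1 (2), CSD3 (1) and CAT2 (2). These matches describe letters and are not evidence of binding.

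APX1, the cytosolic ascorbate peroxidase, had 804, 799 and 862 FPKM in stch4-1 and 620, 601 and 576 FPKM in WT. The mutant libraries were all above the WT libraries, with a log2 fold change of 0.455 (SE 0.05, 95% interval 0.35 to 0.56, limma adjusted p = 0.00035), or 1.37 times. Among tested genes that averaged 500 FPKM or more, as APX1 did, 48.7% were called higher, with a median log2 fold change of 0.19. APX1 was called under all alternatives, between 0.30 under quantile normalization and 0.48 without WT a. Of the 7 other ascorbate peroxidase genes, 6 were tested, 2 were lower, or 1 without WT c, and 0 higher, with a median log2 fold change of -0.03. Over all genes tested 14.0% were called lower and 18.5% higher in the main fit. Of all 19289 genes, 2704 were lower there and 1826 without WT c. TAPX, the thylakoid form, fell to 58.0 ± 1.19 FPKM in stch4-1, against 65.3 ± 1.29 FPKM in WT (SD, n = 3 each, limma adjusted p = 0.00923). SAPX, the other of the pair called lower and named after its values were seen, serves the chloroplast stroma and stood at 95.5 ± 1.31 FPKM in stch4-1 and 105 ± 1.36 FPKM in WT (SD, n = 3 each).

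**Figure D3:**
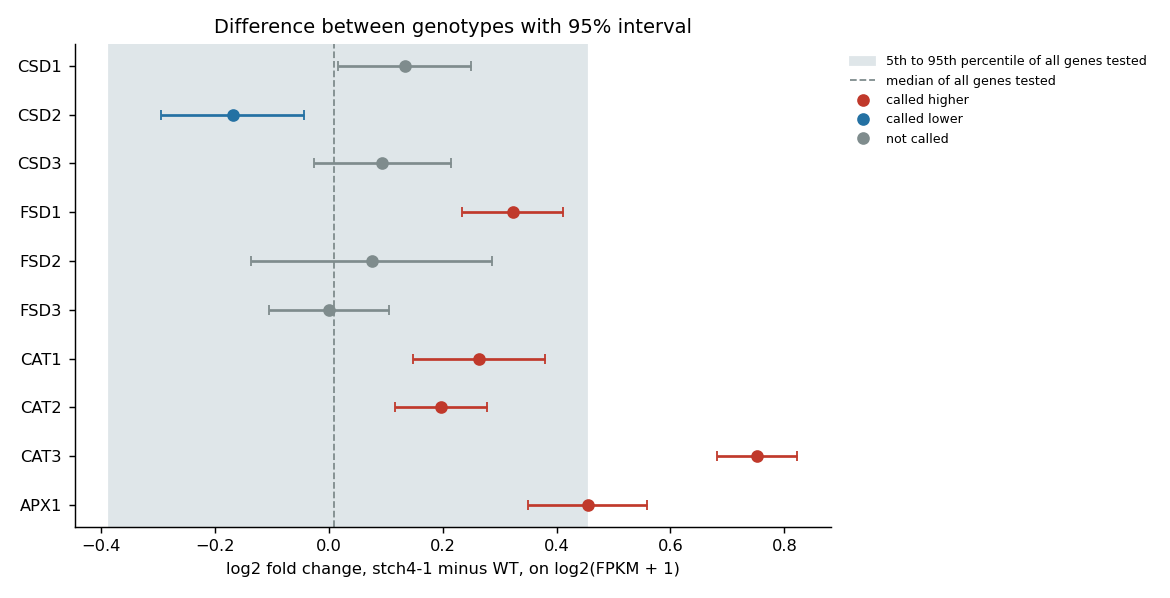
Log2 fold change, stch4-1 minus WT, of the 10 genes with its 95% interval; the shaded band holds the 5th to 95th percentile of all tested genes (-0.39 to 0.45) and the dashed line their median (0.01). CAT3 at 0.75 lay outside the band and APX1 at its upper edge, while the other 8 lay inside it.

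By the naming rule, genes whose pattern over the 6 libraries was most like CAT3 were AT4G11010 (NDPK3), AT2G25510 and AT3G23490 (CYN), with Pearson's r from 0.9996 to 0.9997 on log2(FPKM + 1). As many as 233 of 14473 candidate genes reached an r of 0.99 or more with CAT3, since a gene with tight replicates and any increase shares its 2-level pattern. AT2G25510 was the largest of these changes, with 2103 ± 29.1 FPKM in stch4-1 and 1032 ± 8.38 FPKM in WT (SD, n = 3 each). For CSD2 the most similar genes were AT1G75850 (VPS35B), AT3G28460 and AT1G53730 (SRF6), with r from 0.986 to 0.994, of which SRF6 was called lower.

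Other genes of the antioxidant system moved in both directions. In the main fit, the counts in this and the following lists stand against 18.5% of all tested genes called higher and 14.0% lower. Those shares are 3576 and 2704 of 19289 genes. Quantile normalization called 2614 of all tested genes higher and 3108 lower. Leaving out 1 library called 2628 to 3260 higher and 1826 to 2273 lower. List counts from those fits are to be read beside these totals. Many of the listed antioxidant genes averaged 100 to 500 FPKM. Among all tested genes at that level 49.5% were called higher and 8.5% lower, with a median log2 fold change of 0.14. Of 47 listed genes, 44 were tested, 16 were higher and 8 lower, with a median log2 fold change of 0.11. Quantile normalization left 8 higher and 11 lower, with a median of -0.04. Without WT c, 10 were higher and 4 lower, and without stch4-1 a 5 were lower. In the recycling of ascorbate and glutathione, 6 of 10 genes were higher and 3 lower, against 2 and 4 with quantile normalization, and 1 was lower without stch4-1 a or without WT c. MDAR3, a monodehydroascorbate reductase, had 37.9, 36.7 and 36.8 FPKM in stch4-1 and 24.8, 21.6 and 21.2 FPKM in WT (log2 fold change 0.70, limma adjusted p = 0.00021). MDAR6, the organellar form, fell to 59.5 ± 1.36 FPKM in stch4-1, against 75.7 ± 2.87 FPKM in WT (SD, n = 3 each, limma adjusted p = 0.00074).

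Among thiol peroxidases 6 of 16 tested genes were higher and 1 lower, against 4 and 2 with quantile normalization. GPX8, a glutathione peroxidase-like enzyme, rose to 72.7 ± 2.70 FPKM in stch4-1, against 49.5 ± 2.64 FPKM in WT (SD, n = 3 each, limma adjusted p = 0.00024). PRXIIE, a plastid peroxiredoxin, fell to 96.8 ± 5.94 FPKM in stch4-1, against 124.5 ± 13.6 FPKM in WT (SD, n = 3 each, limma adjusted p = 0.0115). In ascorbate and glutathione synthesis 2 of 9 genes were higher and 2 lower, each count falling to 1 without any library but WT b. VTC4, of the mannose and galactose route to ascorbate, rose to 129 ± 0.625 FPKM in stch4-1, against 104 ± 5.86 FPKM in WT (SD, n = 3 each), and GLDH, the last enzyme of that route, fell to 6.16 ± 0.145 FPKM in stch4-1, against 8.57 ± 0.451 FPKM in WT (SD, n = 3 each).

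**Figure D4:**
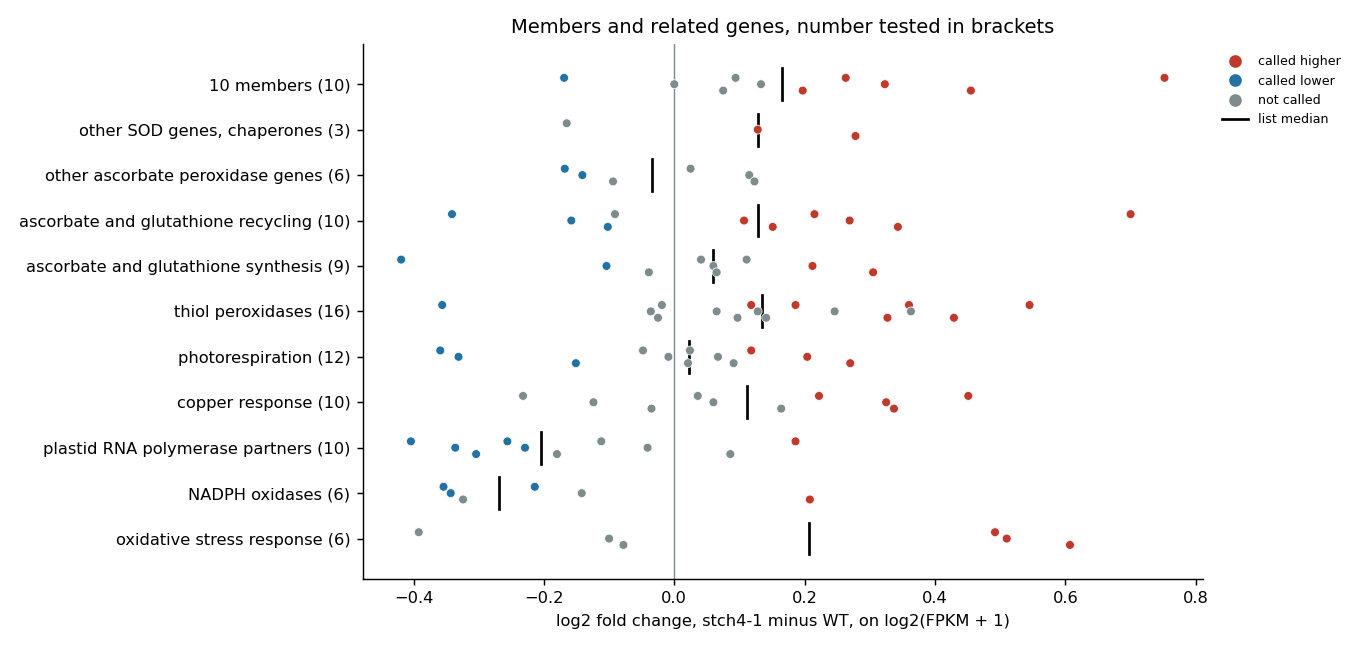
Log2 fold change, stch4-1 minus WT, of each tested gene in the 10 members and in related lists, coloured by call, with the list median as a black line. Most lists hold genes on both sides of 0, and the lowest medians of the lists drawn are those of the NADPH oxidases (-0.27) and the plastid RNA polymerase partners (-0.20).

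Genes around hydrogen peroxide production were counted in the same way. In photorespiration, the main source of peroxide for CAT2, 3 of 12 genes were higher and 3 lower, against 0 and 6 with quantile normalization. AGT1, a peroxisomal aminotransferase, stood at 1330 ± 28.6 FPKM in stch4-1 and 1104 ± 56.6 FPKM in WT (SD, n = 3 each), a rise that became 0.00 on the log2 scale under quantile normalization (adjusted p = 0.964). GOX3, of the glycolate oxidase family, fell to 20.5 ± 0.962 FPKM in stch4-1, against 26.6 ± 1.49 FPKM in WT (SD, n = 3 each). Its part in photorespiration was not tested. The more abundant glycolate oxidase genes GOX1 and GOX2, named after their values were seen, differed from GOX3. GOX1 stood at 1235 ± 14.2 FPKM in stch4-1 and 1179 ± 22.8 FPKM in WT, and was not called (limma adjusted p = 0.181). GOX2 was called higher, at 557 ± 8.14 FPKM in stch4-1 and 513 ± 5.16 FPKM in WT (limma adjusted p = 0.0235). None of the 3 catalase partners was called: NCA1, a chaperone of catalase, was at 73.1 ± 2.24 FPKM in stch4-1 and 69.7 ± 2.50 FPKM in WT (SD, n = 3 each). LSD1 and PEX5 had log2 fold changes of -0.07 and -0.02, and the groups overlapped for all 3.

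Of the NADPH oxidases, which make superoxide at the cell surface, 1 of 6 tested genes was higher and 3 were lower, or 1 without WT c. RBOHD rose to 46.1 ± 0.504 FPKM in stch4-1, against 39.8 ± 0.207 FPKM in WT, and RBOHF fell to 11.1 ± 0.415 FPKM in stch4-1, against 14.5 ± 0.997 FPKM in WT (SD, n = 3 each). Among oxidative stress response genes 3 of 6 tested were higher and 0 lower, with 1 lower without WT c. Of these, the zinc-finger gene ZAT12 rose most, to 262 ± 8.93 FPKM in stch4-1, against 171.8 ± 8.41 FPKM in WT (SD, n = 3 each, limma adjusted p = 0.0001). In the copper response list 4 of 10 genes were higher and 0 lower. That count was 2 with quantile normalization, without stch4-1 c or without WT a, and 1 without stch4-1 a or without WT c. Their largest rise was in the copper transporter gene COPT6, at 48.6 ± 5.71 FPKM in stch4-1 and 35.5 ± 6.68 FPKM in WT (SD, n = 3 each, limma adjusted p = 0.0322). The COPT6 groups overlapped and its call was lost without stch4-1 a, stch4-1 c, WT a or WT c (adjusted p from 0.0867 to 0.0968), and also without the filter, the eBayes trend or the length trend. SPL7 itself, named after its values were seen, stood at 14.8 ± 0.0863 FPKM in stch4-1 and 16.2 ± 0.575 FPKM in WT (SD, n = 3 each, limma adjusted p = 0.0852), without overlap.

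**Figure D5:**
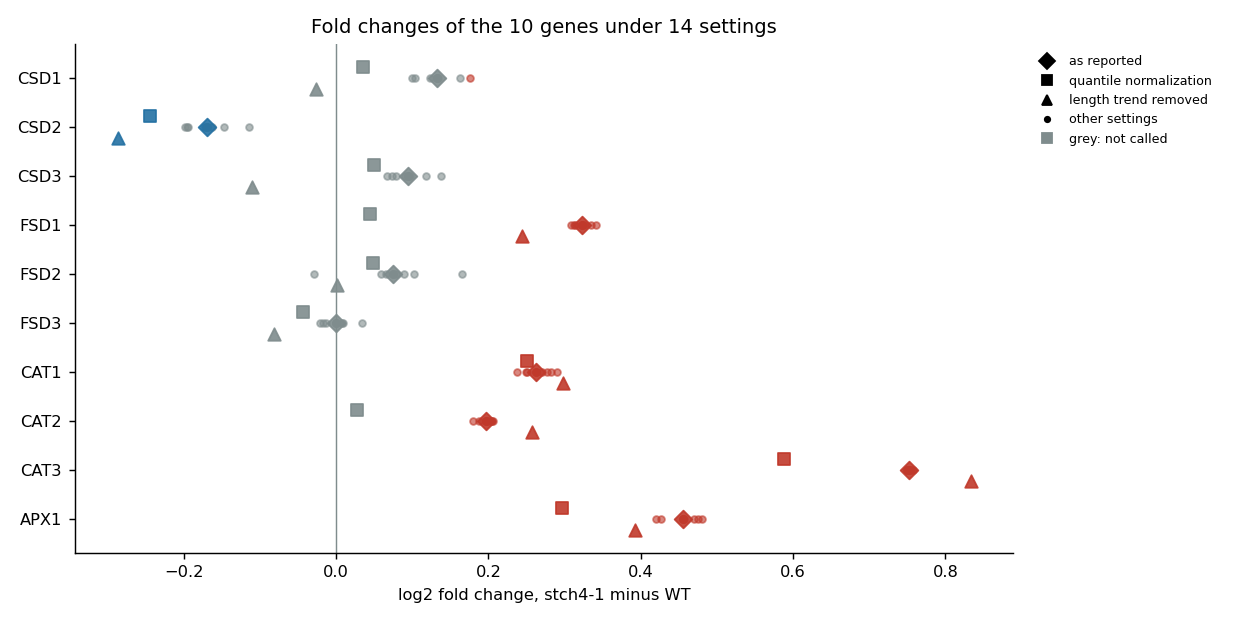
Log2 fold change of the 10 genes as reported (diamonds), under quantile normalization (squares), with the length trend removed (triangles) and under the other settings (small points), 14 settings in all; grey marks values that were not called. CAT3, APX1 and CAT1 were called higher in all, FSD1 and CAT2 lost the call under quantile normalization, and CSD2 was called in 5.

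Summed FPKM was 947218 to 987059 in stch4-1 and 878394 to 919309 in WT. Relative depth was estimated as the commonest ratio of WT a to each library among genes under 0.6 FPKM in all libraries. It was 1.02 to 1.22 in stch4-1 and 1.00 to 1.45 in WT. Leaf markers were abundant, with sums of 41190 to 48170 FPKM in stch4-1 and 38110 to 44660 FPKM in WT, 2 of 10 called higher and 0 lower, or 0 and 3 with quantile normalization. Without stch4-1 a or WT c 0 were called higher, and without stch4-1 c or WT a 1 was. Of these RBCS2B rose most (log2 fold change 0.27, limma adjusted p = 0.0224), a call lost without any of those 4 libraries, the filter or the length trend, and it was at -0.04 with quantile normalization. Root markers summed to 198.5 to 202 FPKM in stch4-1 and 234 to 245 FPKM in WT, ranges that did not overlap, with 6 of 13 tested markers lower and 0 higher (1 without stch4-1 b or WT b) and none of the 15 listed at 0 throughout; PRP3 fell most (-0.70, limma adjusted p = 0.00013). The part of the root difference in the values above was not tested, and in whole seedlings fewer cells of a type and less transcript per cell cannot be told apart. All 7 pollen and seed markers were under 1 FPKM.

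Through overlapping genes or shared words, counting could mix signals in 4 of the 10 genes. RefSeq places genes on the opposite strand that overlap CSD1 (211 bases), CSD3 (142 and 405 bases) and CAT2 (95 bases), and whether reads were counted by strand is not given in the sources used here. The gene over 142 bases of CSD3, AT5G18110, averaged 45.7 FPKM, above CSD3 itself (29.4 FPKM in stch4-1, 27.5 FPKM in WT). Those over CSD1 and CAT2 averaged 1.35 and 33 FPKM, below their partners. The gene over 405 bases of CSD3, AT5G02875, has no row among the deposited values. In FSD2, 34 of 1259 words of 50 bases also occur in a transcript of another gene (AT4G00651), and in the other 9 genes none do. CAT1 and CAT3 do not overlap but lie 95 bases apart on the same strand, at 18.9 and 755 FPKM in stch4-1. Whether CAT3 fragments were counted to CAT1 was not tested.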

How the data were processed

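Gene-level FPKM values for 33557 identifiers were used as deposited. Per the submitters' processing notes, TopHat2 and Cufflinks were used with TAIR10; the sources used here give no versions, strand setting or multi-read handling. The 6 columns name genotype and time but count from 0 where titles count from 1, so libraries are called a, b and c in table order. No label ties libraries to separate cultures, and the p-values then measure only the spread between samples, which may be technical. Total depth is not in the table.

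Genes with at least 1 FPKM in 3 or more libraries were tested (19289) on log2(FPKM + 1), a scale that understates the change of low genes, with limma 3.58.1 in R 4.3.3 (intensity trend, 2-sided, Benjamini-Hochberg). All groups in the table entered the fit. The fit was also run on simulated data with known changes in 200 of 19289 genes. It recovered 14.9% of changes of 0.25 on the log2 scale, 56.7% of those of 0.5 and 90.9% of those of 1. Of the simulated calls 0.917% were false. The data had 6280 genes called, far more than were changed in the simulation, so these rates do not carry over to the data. Shares and ratios used exact permutation tests. Sequences, names and lengths came from RefSeq TAIR10.1 (32810 identifiers matched; 32802 with a length).

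The members and lists were chosen with earlier results of these data known. Named genes were the 10, REIL2, MSD1, CCS, the called gene with the largest rise and fall in each list, and the 3 genes most correlated with the most significant member in each direction. Alternatives were another pseudocount (0.1), no filter, a mean of 5 FPKM, quantile normalization, no trend, removal of a length trend, and leaving out each library; a fit with the column number as a block was added after the data were seen.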

Additional observations from a re-analysis of the deposited data

How the results depend on the processing

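Calls of CAT3, CAT1 and APX1 held under every alternative run. The call of CSD2 was lost without the filter and without the eBayes trend (log2 fold change -0.169 in both, 0 members called lower), and on leaving out any library (-0.198 to -0.114, again 0 members lower). Quantile normalization left 3 members called higher: FSD1 at 0.045 and CAT2 at 0.027 lost their calls, FSD3 turned to -0.044 and RBCS2B to -0.041, and other antioxidant genes called higher numbered 8. Over all genes it moved the higher share of calls from 56.9% to 45.7%, while the median log2 fold change moved from 0.01 to -0.01. It also turned share differences (percentage points) to 0.00482 for CSD3, -0.0562 for FSD1, 0.00214 for FSD2, 0.689 for MSD1 and 0.0271 for CAT1. Other antioxidant genes numbered 10 higher and 5 lower without the eBayes trend, and 10 higher without the length trend. Over all genes tested, 3167 were higher and 2768 lower without the eBayes trend, and 2679 higher without the length trend. Without the length trend CSD1 stood at -0.026, CSD3 at -0.111 and FSD3 at -0.081. On leaving out each library, other antioxidant genes ranged over 10 to 15 higher and 4 to 7 lower, CSD1 over 0.1 to 0.176, FSD2 over -0.029 to 0.165, FSD3 over -0.021 to 0.034, and the MSD1 share difference over -0.227 to 0.0618. Counts in single lists moved by over 1.5 times in 74 of 390 cases. The cause of these shifts was not tested.

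A fit with the column number as a replicate block, chosen after seeing the data, kept 2 residual degrees of freedom and called 5080 genes, against 6280 without it. CSD2 (-0.169, adjusted p = 0.0727) lost its call there, leaving 0 members called lower, COPT6 and RBCS2B lost theirs, and other antioxidant genes numbered 10 higher and 5 lower; no other member's call changed. The column numbers are not those of the titles, and deviations from the group means in libraries of the same number correlated, across genes, at 0.053, -0.135 and -0.036, so the numbers were not taken to pair libraries. Of libraries with unlike numbers, stch4-1 c and WT b had the highest correlation, 0.149, above the limit of 0.1 set for pairing. The lowest was -0.111, for stch4-1 c and WT a. What stch4-1 c and WT b share was not tested. With 3 libraries a group, an exact test cannot go below 0.1, and the intervals of CSD3, FSD2 and FSD3 include both directions, so a small difference in either was not detectable here. The table gives no total count, so no counting interval is given.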
